A study of Mus musculus with 34 samples.

Results

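The genes described here encode histone-modifying enzymes, taken as every row of the deposited expression table whose symbol begins with Kdm, Hdac, Sirt, Kat, Prmt or Setd followed by a digit. The rule uses names only and no measured value. It finds 59 of the 23366 genes of the table, and they were grouped into 9 enzyme classes. RNA was measured in J1 mESCs, a line of mouse embryonic stem cells (mESCs) grown in serum on gelatin-coated plates. The 4 RNA-seq libraries, the only samples used here, came from cultures without leukemia inhibitory factor (LIF), the cytokine that keeps such cells undifferentiated. In 2 of them no factor was added (serum/-LIF), and in the other 2 purified recombinant Royalactin, the major protein of honey bee royal jelly, was added at 0.5 mg/ml (serum/-LIF + Royalactin). The labels give passage 40 for all of them, while the text of the study gives another passage number. Cells of a single line were used, and the labels do not say whether the replicates are separate cultures, so the p-values may measure technical spread only.

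Histones, the proteins that DNA is wound around, carry acetyl and methyl groups that these enzymes add or remove. Lysine acetyltransferases (Kat) add acetyl groups, generally at active genes, and zinc-dependent deacetylases (Hdac) and the NAD-dependent sirtuins (Sirt) take them off. Setd and Prmt proteins transfer methyl groups to lysine and arginine, and Kdm proteins remove them from lysine. Most act in large complexes, and several of the named proteins work mainly on proteins other than histones. In embryonic stem cells these marks are known to differ between the naive state, with open chromatin, and cells that have begun to differentiate.

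Depth differed between the libraries. Between 7878527 and 15999458 reads fell on genes other than Rn45s, the ribosomal RNA precursor, which took 9.08% to 46.6% of all reads on genes. Values are normalized counts, that is reads divided by a size factor per library, and 1 read was worth 0.688 to 1.34 of them. The 10 pluripotency markers were detected in every library and 5 of them rose with Royalactin at an adjusted p under 0.05 (limma, Benjamini-Hochberg). Nanog and Dppa5a were higher without overlap but did not pass, and Pou5f1 and Utf1 overlapped between conditions. Tdgf1 was lower in both Royalactin libraries, with 10914 and 14553 normalized counts in serum/-LIF against 8696 and 9728. Bulk RNA cannot separate fewer cells of a kind from less RNA per cell, and this holds for every value given here.

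A single enzyme gene, Kat2b, passed the test over all genes. It rose about 4-fold with Royalactin. Differences were taken on log2(normalized count + 1) and tested by limma, allowing the variance to follow the mean, for the 58 of the 59 members with a mean of at least 10 normalized counts. The 1 member called among 58 stands against 0.493% of all 12993 genes tested, or 0.331% for genes that rose. The study selected genes with the DESeq test at a p of 0.05 and a 2-fold difference, and names no adjustment. The same limits were applied here to the unadjusted limma p. They selected 4 members, Kat2b, Kat6b, Kdm3a and Hdac6, all of them higher with Royalactin. Among all genes they selected 7.13% (3.52% higher and 3.61% lower). The 4 members are 6.90% of those tested, near the share among all genes. Without the fold limit, 9 of the 58 tested members had an unadjusted p under 0.05, a larger share than the 9.34% of all genes. The 7 that were higher are a larger share of the 58 than the 4.76% of all genes. The 2 that were lower are a smaller share than the 4.58% of all genes. In 18 members (31.0%) both Royalactin libraries lay above both serum/-LIF libraries, and in 7 (12.1%) both lay below, against 19.7% and 18.9% of all genes. The median log2 difference was 0.08 over the tested members and -0.01 over all genes tested. With a library left out the members' median lay between -0.0015 without serum/-LIF replicate 2 and 0.23 without serum/-LIF replicate 1.

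**Figure D1:**
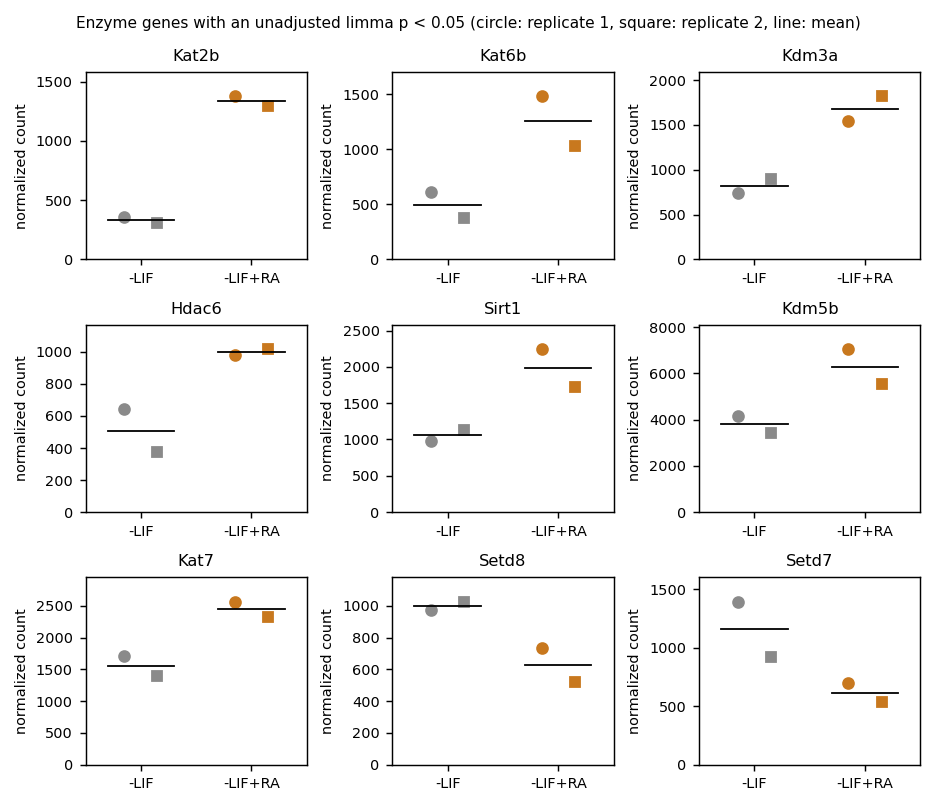
Normalized counts (vertical axes from 0) of the 9 enzyme genes with an unadjusted limma p under 0.05, in serum/-LIF (grey) and serum/-LIF + Royalactin (orange), with circles for replicate 1, squares for replicate 2 and lines for the means of 2 libraries. The groups do not overlap in any panel, and only Kat2b passed the adjusted threshold.

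The lysine acetyltransferases held the only member called. Of the 7 tested, 4 (57.1%, against 19.7% of all genes) had both Royalactin libraries above both serum/-LIF libraries and none had both below (18.9% of all genes). The median log2 difference was 0.47 (0.47 without Royalactin replicate 2 and 0.74 without serum/-LIF replicate 1). Kat2b (PCAF, chromosome 17, 53706186 to 53812045 of mm9), which acetylates histone H3 in coactivator complexes such as SAGA, had 358 and 312 normalized counts in serum/-LIF and 1376 and 1295 in serum/-LIF + Royalactin. The pairs are far apart and each is tight. Means rose from 335 ± 33.1 to 1336 ± 56.9 normalized counts (SD, n = 2). On the log2 scale Kat2b rose by 2.00, with a 95% interval of 1.31 to 2.68 (limma adjusted p = 0.0123). Left out in turn, each of the 4 libraries ended this call, with log2 differences of 1.89 to 2.10 and limma adjusted p-values of 0.166 without serum/-LIF replicate 1, 0.273 without replicate 2, 1 without Royalactin replicate 1 and 0.975 without replicate 2. In these fits limma called none of all genes, and 428 to 2496 had an unadjusted p under 0.05. With no variance trend the limma adjusted p was 0.248.

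Kat2b counts carry a further limit. Of the 75-base tiles of its exons, 41.8% also matched another place in mm9 with up to 2 mismatches, mostly on chromosomes 5 and 13, so reads may have been shared with these copies or dropped. The first coding tile that differs from a copy at exactly 2 bases is printed beside that copy, with the bases that differ in capitals. Any tiles with fewer differences were passed over, so other stretches may be more alike. Counted from 1 at the 5′ end, the copy differs by G42C and C45T (Kat2b base first). The stretch lies within a coding exon of Kat2b, chr17:53771887-53771961 on the + strand, and the copy at chr5:93821355-93821429 on the - strand.
Kat2b coding exon: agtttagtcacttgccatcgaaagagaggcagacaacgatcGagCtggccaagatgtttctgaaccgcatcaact
Copy on chromosome 5: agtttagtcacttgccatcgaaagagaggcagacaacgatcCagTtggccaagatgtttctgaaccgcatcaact

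Kat6b (MORF, chromosome 14, 22319076 to 22491354), a MYST-family enzyme that works on histone H3 with BRPF scaffolds, had 614 and 381 normalized counts in serum/-LIF and 1483 and 1031 in serum/-LIF + Royalactin. Both Royalactin libraries lay above both others, although replicate 1 exceeded replicate 2 in each condition. Its log2 difference was 1.35 (unadjusted p = 0.00177, limma adjusted p = 0.143). Its paralogue Kat6a (MOZ) differed by 0.05 (95% interval -0.69 to 0.78). Kat7 (HBO1, chromosome 11, 95135573 to 95171560), which acts with BRPF or JADE scaffolds on histones H3 and H4, had 1709 and 1393 normalized counts in serum/-LIF and 2566 and 2327 in serum/-LIF + Royalactin. The groups did not overlap, and the log2 difference was 0.66 (unadjusted p = 0.039, limma adjusted p = 0.501). Kat8 (MOF), the main acetyltransferase of histone H4, also had both Royalactin libraries on top, with a log2 difference of 0.47 (95% interval -0.32 to 1.27). Kat5 (TIP60), a subunit of the TIP60 remodelling complex, spread from 292 to 595 normalized counts within serum/-LIF alone, and its exons share bases with Rnaseh2c on the opposite strand. Kat2a (GCN5), the paralogue of Kat2b, had 761 and 521 normalized counts in serum/-LIF and 576 and 557 in serum/-LIF + Royalactin. Its log2 difference of -0.15 (95% interval -0.88 to 0.57) was within the spread of the libraries and was 0.12 without serum/-LIF replicate 1.

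The promoters of the 4 members selected by the limits of the study are printed because all 4 genes had higher values with Royalactin. After a correction for GC content and exon length, chosen after seeing the data, the 4 genes past these limits were Hdac8, which was lower, Kat2b, Kat6b and Sirt3, without Hdac6 and Kdm3a. The windows run from 250 bases before to 50 bases after the most upstream RefSeq start (assembly GRCm38.p6, a later build than the mm9 of the counts). Promoters were given for 47 of the 59 members. Capitals mark matches on either strand to the GC box GGGCGG, the CCAAT box (spelled by its name), the TATA box TATAAA, the E-box CACGTG and the STAT element TTCNNNGAA, of which no pattern contains another.
Kat2b, chr17:53566721-53567020, + strand: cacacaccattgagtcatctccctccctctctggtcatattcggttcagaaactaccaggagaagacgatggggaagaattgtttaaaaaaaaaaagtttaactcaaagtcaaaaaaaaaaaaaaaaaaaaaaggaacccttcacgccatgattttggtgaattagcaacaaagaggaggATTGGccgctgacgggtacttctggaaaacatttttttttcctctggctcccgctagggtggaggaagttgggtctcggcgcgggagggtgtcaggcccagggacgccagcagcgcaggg
Kat6b, chr14:21499520-21499819, + strand: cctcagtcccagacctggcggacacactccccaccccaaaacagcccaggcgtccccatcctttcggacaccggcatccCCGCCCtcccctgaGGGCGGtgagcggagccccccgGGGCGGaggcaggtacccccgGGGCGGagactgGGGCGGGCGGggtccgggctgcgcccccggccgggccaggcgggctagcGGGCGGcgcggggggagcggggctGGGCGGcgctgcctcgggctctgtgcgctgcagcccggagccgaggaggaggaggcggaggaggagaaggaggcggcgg
Kdm3a, chr6:71632868-71633167, - strand: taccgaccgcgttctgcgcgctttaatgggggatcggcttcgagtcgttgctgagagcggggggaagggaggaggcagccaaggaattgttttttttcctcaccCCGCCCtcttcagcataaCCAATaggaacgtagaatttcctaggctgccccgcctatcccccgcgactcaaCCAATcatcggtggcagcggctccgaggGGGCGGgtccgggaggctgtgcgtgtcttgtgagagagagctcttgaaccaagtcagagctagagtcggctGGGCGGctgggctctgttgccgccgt
Hdac6, chrX:7947840-7948139, - strand: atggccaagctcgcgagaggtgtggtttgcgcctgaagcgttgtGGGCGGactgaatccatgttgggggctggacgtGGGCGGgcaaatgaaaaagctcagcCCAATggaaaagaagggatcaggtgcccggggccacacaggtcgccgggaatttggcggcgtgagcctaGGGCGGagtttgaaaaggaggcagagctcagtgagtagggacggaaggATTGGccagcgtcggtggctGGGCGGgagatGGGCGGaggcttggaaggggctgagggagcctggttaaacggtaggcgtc

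The letters found differed between the 4 windows. Kat6b held 8 GC-box matches, with overlapping ones counted apart, Hdac6 5, Kdm3a 3 and Kat2b 0. At least 1 stood in 35.9% of all 27025 promoters of this length, which were not matched for GC content. The CCAAT pattern occurred in Kdm3a and Hdac6 (2 each) and in Kat2b (1), against 38.0% of all promoters. No window held the TATAAA, E-box or STAT letters, which stood in 14.2%, 7.24% and 8.42% of promoters. The GC content was 78.3% for Kat6b, 62.0% for Hdac6, 60.7% for Kdm3a and 47.0% for Kat2b, against a median of 52.7% over all promoters. The starts listed numbered 2 for Kat2b, 2 for Kat6b, 3 for Kdm3a and 1 for Hdac6, and only the most upstream was searched.

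Among the lysine demethylases Kdm3a and Kdm5b had an unadjusted p under 0.05 and none passed the adjusted threshold. Of the 15 JmjC members, which use iron and oxoglutarate, 14 were tested and Kdm4d had no read in any library. Both Royalactin libraries lay above both others for 3 of the 14, Kdm3a, Kdm4c and Kdm5b, and below for none. This share of 21.4% is near the 19.7% of all genes. The median log2 difference of 0.10 did not keep its sign, at -0.076 without serum/-LIF replicate 2 and 0.28 without Royalactin replicate 2. Kdm3a (JMJD1A, chromosome 6, 71538968 to 71582899), which removes repressive methyl groups from histone H3 and is known to help maintain embryonic stem cells, had 738 and 896 normalized counts in serum/-LIF and 1539.9 and 1818 in serum/-LIF + Royalactin. The conditions did not overlap, with a log2 difference of 1.04 (unadjusted p = 0.00401, limma adjusted p = 0.21). Kdm5b (chromosome 1, 136456748 to 136529454), which takes activating methyl groups off histone H3, had 4171 and 3419.8 normalized counts in serum/-LIF and 7049 and 5519.8 in serum/-LIF + Royalactin. Its log2 difference was 0.72 (unadjusted p = 0.0319, limma adjusted p = 0.461). Kdm4c, a demethylase of repressive marks on histone H3, had 2053 and 2239 normalized counts in serum/-LIF and 2909 and 2534 in serum/-LIF + Royalactin, a log2 difference of 0.34 (95% interval -0.27 to 0.96).

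For the demethylases of the Polycomb methyl mark the conditions overlapped. Kdm6a (UTX), encoded on the X chromosome, had 1732 and 1721 normalized counts in serum/-LIF and 2142 and 1392 in serum/-LIF + Royalactin, a log2 difference of 0.00 (95% interval -0.66 to 0.66). Kdm6b (JMJD3) had 253 and 277 normalized counts in serum/-LIF and 266 and 76.4 in serum/-LIF + Royalactin. A single Royalactin library was low and the other lay between the serum/-LIF values, and its log2 difference of -0.89 has a wide 95% interval (-2.06 to 0.29). Kdm2b, which brings a Polycomb complex to CpG islands, differed by -0.08 and Kdm2a by 0.11. For Kdm2b, replicate 1 exceeded replicate 2 in both conditions, with 1610.1 and 905 normalized counts in serum/-LIF and 1506 and 865 in serum/-LIF + Royalactin. Kdm5a and Kdm5c, the other broadly expressed members of the Kdm5 family, differed by -0.08 and 0.08. The Y-linked Kdm5d had 13 and 52 reads in serum/-LIF and 1 and 42 in serum/-LIF + Royalactin, and its log2 difference of -2.04 is bounded only by -5.21 to 1.13. Of its tiles, 18.2% also matched elsewhere. Kdm3b, Kdm4a, Kdm4b and Kdm8 had log2 differences from 0.04 to 0.47, each with overlapping groups.

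In the LSD1-type family, flavin enzymes that remove methyl groups from histone H3, Kdm1b had 211 and 266 normalized counts in serum/-LIF and 469.7 and 365 in serum/-LIF + Royalactin. Its groups did not overlap, with a log2 difference of 0.80 (unadjusted p = 0.0547, limma adjusted p = 0.549). Kdm1a (LSD1), the catalytic subunit of the CoREST complex, had 2759 and 1911 normalized counts in serum/-LIF and 2706 and 2666 in serum/-LIF + Royalactin. Here serum/-LIF replicate 2 was low and the other 3 libraries were alike, and the log2 difference of 0.23 (95% interval -0.42 to 0.87) was -0.039 without that library.

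**Figure D2:**
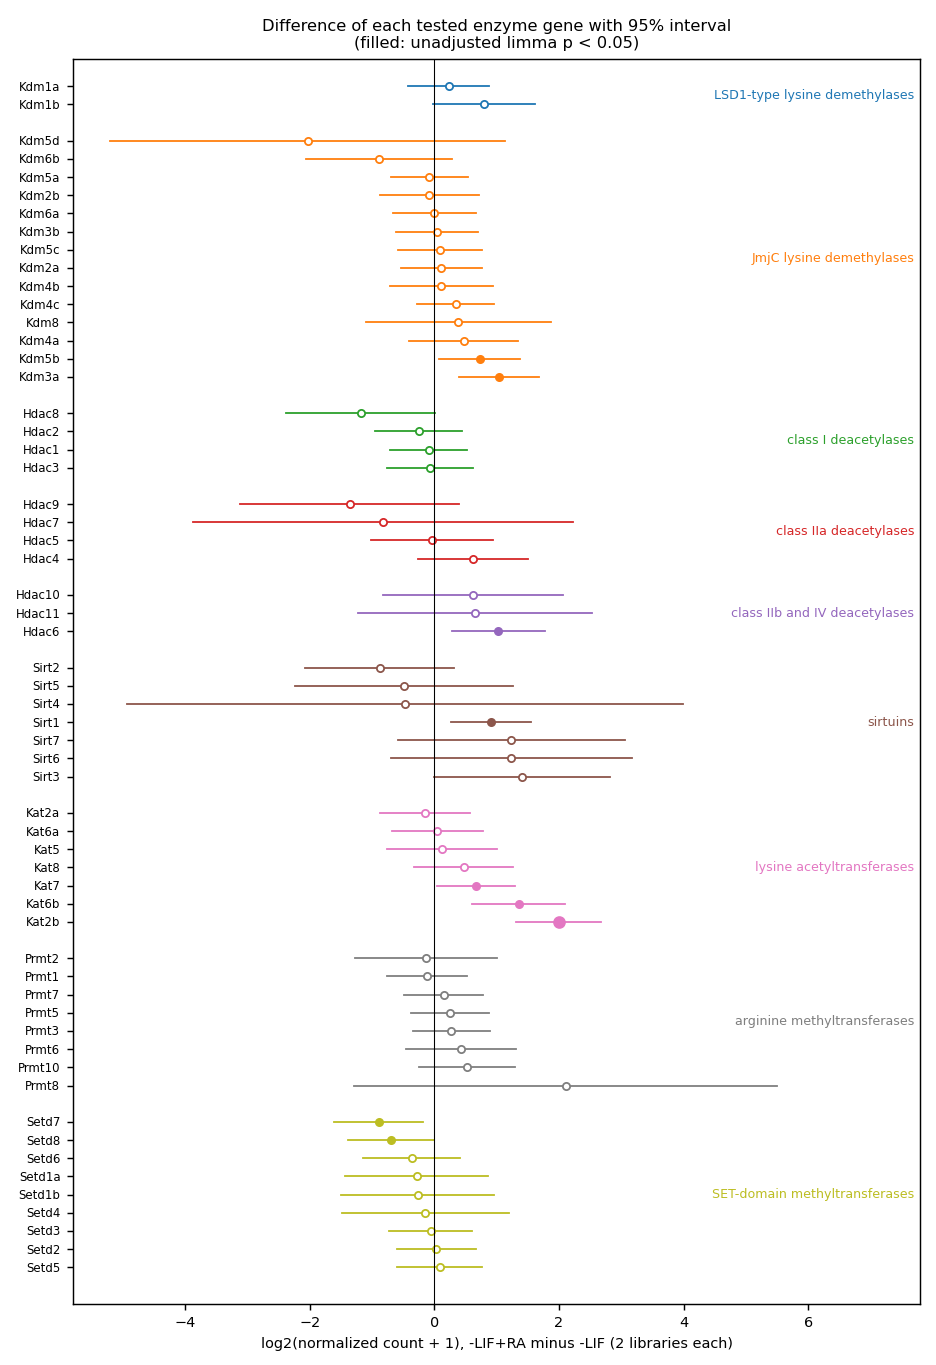
Difference between serum/-LIF + Royalactin and serum/-LIF in log2(normalized count + 1) for the 58 tested enzyme genes (horizontal axis), grouped and coloured by enzyme class, with 95% intervals from limma (2 libraries per condition). Filled points have an unadjusted p under 0.05. Kat2b, the large point, lies farthest from 0 relative to its interval, and the filled points of the SET-domain class, Setd7 and Setd8, are those below 0.

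The zinc-dependent deacetylases lay on both sides of 0. All 4 class I enzymes had lower means with Royalactin (median log2 difference -0.17), and none passed the test. The median was -0.43 without serum/-LIF replicate 1 and -0.011 without serum/-LIF replicate 2. Hdac1 and Hdac2, the paired catalytic subunits of the Sin3, NuRD and CoREST complexes, had log2 differences of -0.09 (95% interval -0.71 to 0.52) and -0.25 (-0.95 to 0.45). Of the exon tiles of Hdac1, 41.7% matched elsewhere too, so its counts are uncertain. Hdac3, the deacetylase of the NCoR complexes, had 592 and 606 normalized counts in serum/-LIF and 561 and 582 in serum/-LIF + Royalactin. These are the steadiest values of the class, and although the groups did not overlap the log2 difference was only -0.07 (95% interval -0.76 to 0.62). Hdac8, X-linked and known to deacetylate cohesin, had 143 and 132 normalized counts in serum/-LIF and 59.3 and 60.6 in serum/-LIF + Royalactin. Both pairs were tight and well apart, with a log2 difference of -1.19 that did not pass (standard error 0.56, unadjusted p = 0.0522, limma adjusted p = 0.544).

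Class IIa deacetylases have little activity of their own and act as corepressors of MEF2 factors. Their median log2 difference of -0.43 over 4 genes turned with the library left out, at -0.88 without serum/-LIF replicate 2 and 0.68 without serum/-LIF replicate 1. Hdac4 had 229 and 168 normalized counts in serum/-LIF and 348 and 261 in serum/-LIF + Royalactin, with both Royalactin libraries higher and a log2 difference of 0.62 (95% interval -0.27 to 1.51). Hdac5 spread from 212 to 544 normalized counts within serum/-LIF, and its Royalactin values of 281 and 389 lay in between. Hdac7 and Hdac9 were weakly expressed. Hdac9 had 45 and 92 reads in serum/-LIF and 15 and 79 in serum/-LIF + Royalactin, a log2 difference of -1.36 with a 95% interval of -3.12 to 0.39, and without overlap of the normalized groups. Hdac7 had 45 and 6 reads in serum/-LIF and 23 and 7 in serum/-LIF + Royalactin. Replicate 1 exceeded replicate 2 in both conditions and the groups overlapped (95% interval -3.88 to 2.23), so no difference can be read.

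The class IIb and IV enzymes all had higher means with Royalactin (median log2 difference 0.65 over 3). The median was 0.50 without Royalactin replicate 2 and 1.41 without serum/-LIF replicate 1. Hdac6 (chromosome X, 7507246 to 7525015), a largely cytoplasmic deacetylase of tubulin, had 642 and 375 normalized counts in serum/-LIF and 979.7 and 1017 in serum/-LIF + Royalactin. The Royalactin pair was tight, the serum/-LIF pair was wide, and the log2 difference was 1.02 (unadjusted p = 0.0105, limma adjusted p = 0.32). It was 0.64 without serum/-LIF replicate 2 and 1.41 without replicate 1. Hdac10, a polyamine deacetylase, had 46.8 and 46.6 normalized counts in serum/-LIF and 66.4 and 78.5 in serum/-LIF + Royalactin, a log2 difference of 0.62 (95% interval -0.82 to 2.06). Hdac11, the class IV enzyme, ranged from 16.6 to 66.9 within serum/-LIF and from 37.2 to 75.7 with Royalactin, so that its groups overlapped.

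Of the 7 sirtuins, Sirt1 alone had an unadjusted p under 0.05. Their median log2 difference of 0.90 was 0.027 without serum/-LIF replicate 2 and 1.28 without Royalactin replicate 1. Sirt1 (chromosome 10, 62781753 to 62844452), a nuclear deacetylase of histones and p53, had 976 and 1135 normalized counts in serum/-LIF and 2245 and 1727 in serum/-LIF + Royalactin. Both Royalactin libraries exceeded both others, at a log2 difference of 0.90 (unadjusted p = 0.00955, limma adjusted p = 0.306). Sirt3, a mitochondrial deacetylase, had 97.6 and 30.0 normalized counts in serum/-LIF and 119 and 179 in serum/-LIF + Royalactin. Serum/-LIF replicate 2 was low, and the difference was 1.41 in log2 with all libraries (unadjusted p = 0.0506, limma adjusted p = 0.539) and 0.57 without it. The same library was low for Sirt6 and Sirt7, chromatin-bound sirtuins, with 11.4 normalized counts of Sirt6 against 74.4 to 86.9 in the others, and 15.5 of Sirt7 against 58.3 to 134. Their log2 differences of 1.24 and 1.23 had 95% intervals of -0.69 to 3.17 and -0.59 to 3.05. Sirt2, a cytoplasmic deacetylase of tubulin, had 107 and 212 normalized counts in serum/-LIF and 73.4 and 90.2 in serum/-LIF + Royalactin, lower in both Royalactin libraries (log2 difference -0.88, 95% interval -2.07 to 0.31). The mitochondrial Sirt5 differed by -0.49 (95% interval -2.23 to 1.26). Sirt4, also mitochondrial, had 3 and 15 reads in serum/-LIF and 0 and 61 in serum/-LIF + Royalactin, and its 2 Royalactin libraries disagree so widely that no difference can be read. A count of 0 there allows up to 3 reads, a limit for counting error only, since reads from PCR-amplified libraries are not independent molecules.

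None of the arginine methyltransferases passed the test, and 6 of 8 had a positive log2 difference. In 5 of the 8 tested both Royalactin libraries lay above both serum/-LIF libraries, Prmt3, Prmt5, Prmt6, Prmt8 and Prmt10, which is 62.5% against 19.7% of all genes, and Prmt8 counts there on few reads. The median log2 difference was 0.26 (0.15 without Royalactin replicate 2 and 0.38 without Royalactin replicate 1). Prmt5, which makes symmetric dimethylarginine and is needed by pluripotent cells, had 1538 and 1607 normalized counts in serum/-LIF and 1653 and 2112 in serum/-LIF + Royalactin. Its log2 difference was 0.25 (95% interval -0.38 to 0.88). Prmt3, which modifies a ribosomal protein, had 1232 and 1360.1 normalized counts in serum/-LIF and 1513 and 1618 in serum/-LIF + Royalactin, a log2 difference of 0.27 (95% interval -0.35 to 0.90). Prmt1, the main source of asymmetric dimethylarginine, had 4143 and 5208 normalized counts in serum/-LIF and 3924 and 4620.1 in serum/-LIF + Royalactin, and its groups overlapped (log2 difference -0.13, 95% interval -0.77 to 0.52). Prmt6 and Prmt10 differed by 0.42 and 0.52, and Prmt7 and Prmt2 by 0.15 and -0.13. Without serum/-LIF replicate 1 the difference of Prmt2 was 0.16. Prmt8, a membrane-anchored enzyme known from the brain, had 5 and 2 reads in serum/-LIF and 12 and 47 in serum/-LIF + Royalactin. All of these counts are small, and the log2 difference of 2.10 had a 95% interval of -1.30 to 5.51.

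Among the SET-domain methyltransferases Setd7 and Setd8 had an unadjusted p under 0.05, both lower with Royalactin, and none passed the adjusted threshold. Of the 9 tested, 7 had a negative log2 difference, 3 (33.3%, against 18.9% of all genes) had both Royalactin libraries below both others and 0 had both above. The median was -0.27 (-0.27 without serum/-LIF replicate 1 and -0.15 without Royalactin replicate 2), and Setd1a, Setd1b, Setd3 and Setd4 were negative with overlapping groups. Setd7 (chromosome 3, 51319241 to 51364800), which places a single methyl group on histone H3 and on many other proteins, had 1393 and 919 normalized counts in serum/-LIF and 695 and 534 in serum/-LIF + Royalactin. Its log2 difference was -0.89 (unadjusted p = 0.0183, limma adjusted p = 0.389). Setd8 (chromosome 5, 124889939 to 124912317), the enzyme that monomethylates histone H4 and is needed for cell division, had 975 and 1026 normalized counts in serum/-LIF and 737 and 519.7 in serum/-LIF + Royalactin. The groups were apart, and the log2 difference of -0.69 reached an unadjusted p of 0.0499 (limma adjusted p = 0.535). Of the Setd8 tiles, 27.1% matched elsewhere. Setd6, known to methylate the NF-kB subunit RelA, had 396 and 391 normalized counts in serum/-LIF and 283 and 330.4 in serum/-LIF + Royalactin, a log2 difference of -0.36 (95% interval -1.14 to 0.42).

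Setd2, which methylates histone H3 along transcribed genes, differed by 0.03 (95% interval -0.61 to 0.66), and Setd5, which associates with corepressors, by 0.08 (-0.60 to 0.77), a value that was -0.11 without serum/-LIF replicate 2 and -0.23 without Royalactin replicate 1. Setd3, in fact a methyltransferase of actin, differed by -0.06 (-0.72 to 0.60), and 27.3% of its tiles matched elsewhere. Setd1a and Setd1b, the catalytic subunits of the Set1 complexes at active promoters, had wide intervals. Setd1a had 960.2 and 354 normalized counts in serum/-LIF and 851 and 269.8 in serum/-LIF + Royalactin, high in replicate 1 and low in replicate 2 of both conditions, and 51.9% of its annotated exon bases also belong to Hsd3b7 on the same strand. Setd1b had 154 and 154 normalized counts in serum/-LIF and 224 and 72.3 in serum/-LIF + Royalactin. Setd4 ranged from 57.3 to 117 normalized counts and its groups overlapped.

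Closely related enzymes differed in balance between conditions in some pairs. Levels were divided by exon length, so that the ratio of a pair can be read within a library, and given as log2 ratios. Kat2a over Kat2b was 1.53 and 1.19 in serum/-LIF and -0.81 and -0.77 in serum/-LIF + Royalactin. By these levels Kat2a was the higher in both serum/-LIF libraries and Kat2b in both Royalactin libraries, a geometric mean ratio of 2.57 against 0.578. Of the exon tiles, 41.8% of Kat2b and 0% of Kat2a also matched elsewhere, so which transcript was more abundant is uncertain. Kat6a over Kat6b was above 0 in serum/-LIF and slightly below 0 with Royalactin, at 0.98 and 1.19 against -0.11 and -0.33. Of their tiles, 0.31% and 8.28% matched elsewhere, and the annotation used for the counting is not given. Which of these paralogues was more abundant with Royalactin is therefore uncertain. Kdm3a over Kdm3b was above 0 throughout, at 0.18 and 0.77 against 1.34 and 1.60. Kdm5a over Kdm5b was below 0 throughout and lower with Royalactin, at -1.75 and -1.67 against -2.71 and -2.31. The ratio of Kdm6a to Kdm6b was higher in both Royalactin libraries, at 2.78 and 3.96 against 2.55 and 2.40. For Hdac1 over Hdac2, Kdm1a over Kdm1b, Kdm2a over Kdm2b, Kdm4a over Kdm4c, Hdac4 over Hdac5 and Setd1a over Setd1b the groups overlapped. Prmt8 had too few reads for its ratio to Prmt1 to be read. Within 2 against 2 libraries an exact permutation test of a ratio, two-sided, cannot go below p = 0.333, so these are given as values.

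**Figure D3:**
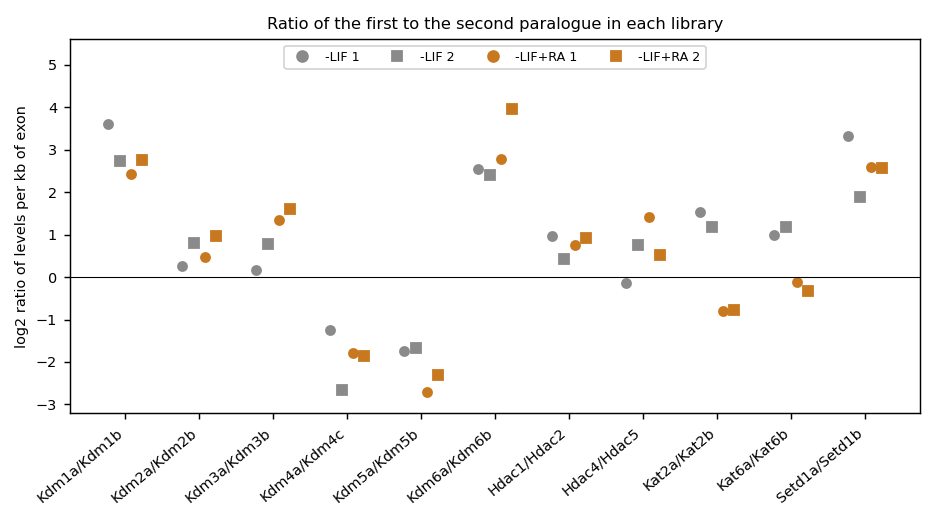
Log2 ratio of the length-scaled levels of 11 paralogue pairs (first over second, vertical axis) in each of the 4 libraries, grey for serum/-LIF and orange for serum/-LIF + Royalactin, circles for replicate 1 and squares for replicate 2. The Kat2a/Kat2b and Kat6a/Kat6b points lie above 0 in serum/-LIF and below 0 with Royalactin.

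Levels per length placed the members over a wide range. Prmt1 led, at 1855 ± 299 and 1695 ± 195 normalized counts per kb of exon in serum/-LIF and serum/-LIF + Royalactin (SD, n = 2). Hdac1 was at 762 ± 93.2 and 710.4 ± 9.10 and Kdm5b at 489 ± 68.5 and 809.8 ± 139. Hdac1 was thus next to Prmt1 in serum/-LIF, and Kdm5b had the higher mean of these with Royalactin, with a spread that covers Hdac1. In serum/-LIF the spreads of Kdm5b, Hdac2 (487 ± 184) and Kdm1a (451 ± 116) overlapped, and with Royalactin Kdm5b lay above both in each library. At the low end of the tested members were Hdac7 at 6.00 ± 6.90 and 2.53 ± 2.34 and Kdm5d at 6.49 ± 4.69 and 2.73 ± 3.59, whose spreads cover each other, and Prmt8, whose libraries ranged from 0.760 to 11.9 per kb. Kat2b rose from 68.8 ± 6.81 to 274 ± 11.7 per kb. In serum/-LIF it thus lay below Kat2a (179 ± 47.6) and near Kdm4b (62.5 ± 3.17), and with Royalactin level with Kat8 (274 ± 1.25). The places of Kat2b and Hdac1 are uncertain, since 41.8% and 41.7% of their tiles also matched elsewhere. Hdac1 and Hdac2 had more transcript per length than every class IIa, IIb or IV member by the means of both conditions. Hdac3 lay above Hdac6 in serum/-LIF (149 ± 2.30 against 87.4 ± 32.5) and below it with Royalactin (142 ± 3.70 against 172 ± 4.58).

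**Figure D4:**
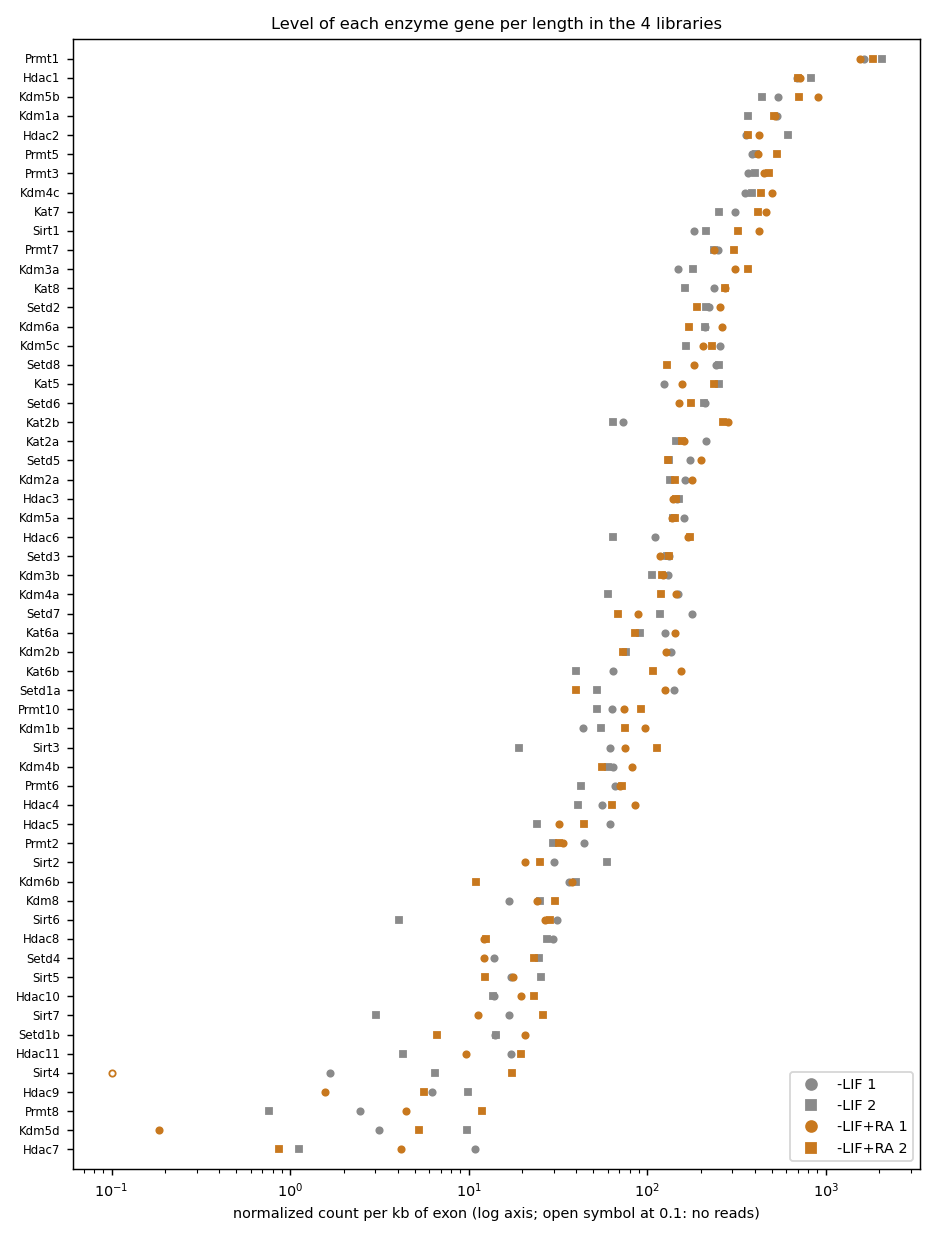
Normalized count per kb of exon (log axis) of the 58 enzyme genes with reads, ordered by their mean over the 4 libraries, with grey symbols for serum/-LIF and orange for serum/-LIF + Royalactin, circles for replicate 1 and squares for replicate 2. Prmt1 is highest, the 2 colours separate widely for Kat2b, and the open symbol at the left marks Sirt4, without a read in Royalactin replicate 1.

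Replicate differences varied widely between members. The median absolute log2 difference over the tested members was 0.46 for the pair of serum/-LIF libraries, 0.35 for the Royalactin pair and 0.40 between the condition means. The last compares means of 2 libraries, which vary less than single libraries, so the sizes cannot be set against each other directly. In 20 of 58 members replicate 1 was above replicate 2 in both conditions, a larger share than the 28.1% of all genes tested. In 12 of 58 it was below in both, a smaller share than the 26.5% of all genes tested. Setd1a differed between replicates by 1.44 in serum/-LIF and 1.65 with Royalactin. Sirt6 and Sirt7 differed by 2.83 and 2.41 between the serum/-LIF replicates. Kat2b differed by 0.20 and 0.09.

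**Figure D5:**
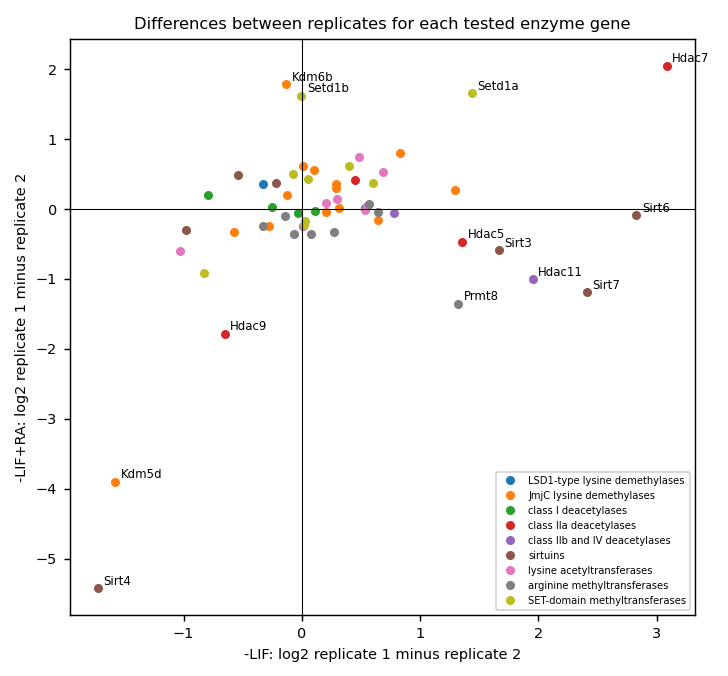
Log2 difference between replicate 1 and replicate 2 in serum/-LIF (horizontal axis) and in serum/-LIF + Royalactin (vertical axis) for the 58 tested enzyme genes, coloured by class. Genes far from 0 are named, among them the sirtuins Sirt3, Sirt6 and Sirt7 on the right and the weakly expressed Sirt4 and Kdm5d at the lower left.

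Enzymes of the same pathway with other names, and the subunits that hold these enzymes, were looked at next. Of 39 tested other enzymes none passed the limma adjusted p of 0.05, with 4 at an unadjusted p under 0.05, and of 83 partner subunits none, with 6, where 9.34% of all genes lay under that limit. Their median log2 differences were 0.11 and 0.11. Among acetyltransferases, Ncoa3, a coactivator of nuclear receptors, lay highest (1061 and 939 against 2534 and 2148 normalized counts with Royalactin, log2 difference 1.22, unadjusted p = 0.000964) and Ep300 lowest, at -0.23. Among methyltransferases, Setmar was lowest (162 and 153 against 58.3 and 43.4 normalized counts with Royalactin, log2 difference -1.63, unadjusted p = 0.0127) and Smyd4 highest, at 0.86. Among demethylases Jmjd1c was lowest, at -0.37. Hr had the highest fitted value there but 34 and 0 reads in serum/-LIF against 16 and 41 with Royalactin, with overlapping groups and a 95% interval of -2.06 to 5.49, so no difference can be read. In the complexes, Rcor2, the CoREST subunit that binds Kdm1a, had the largest difference of the deacetylase partners (599 and 203 against 934 and 915 normalized counts with Royalactin, log2 difference 1.40, unadjusted p = 0.00681), and Gps2, of the NCoR complex, the lowest, at -0.85. Phf17 (Jade1), a scaffold of Kat7, led the acetyltransferase partners (3333 and 3741 against 6792 and 6382 normalized counts with Royalactin, log2 difference 0.90, unadjusted p = 0.00842), and Msl3, which works with Kat8, was their lowest (194 and 327 against 95.6 and 62.6 normalized counts with Royalactin, log2 difference -1.69, unadjusted p = 0.00532). Among Set1 and MLL subunits Ash2l and Psip1 were the extremes, at 0.74 and -0.41, and among arginine methyltransferase cofactors Prdm1 and Btg2, at 1.19 and -0.92. The list of MYST enzymes under older symbols matched no row.

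Markers of other cell types were measured beside these values, given for replicate 1 and then replicate 2. The 10 fibroblast markers summed to 362 and 206 normalized counts in serum/-LIF and 257 and 352 with Royalactin, mostly Fbln1 (250 and 111 against 202 and 314). Postn and Pdgfrb were at 0 in every library. Of 3 tested, Dcn had an unadjusted limma p under 0.05 and was lower (37.4 and 31.1 against 0 and 0), and Fbln1 and Thy1 overlapped. Col1a1 and Col3a1, under the filter and on few reads, were also lower in both Royalactin libraries. The 8 extraembryonic endoderm markers summed to 432 and 346 in serum/-LIF against 348 and 251 with Royalactin, mostly Dab2 (284 and 245 against 188 and 126). Gata4 (28.1 and 8.28 against 49.3 and 44.7) and Sox17, on few reads, were higher without overlap. Dab2 and Ttr (48.1 and 50.7 against 12.1 and 31.7) were lower without overlap. Of 5 tested, 3 had a positive log2 difference and none an unadjusted limma p under 0.05. Gata6 was at 0 in 3 libraries. The 6 neural progenitor markers summed to 2159.8 and 1704 against 1228 and 1359, a sum carried by Nes (1489.8 and 1099 against 334 and 326), which fell (limma adjusted p = 0.0166). Of these markers 4 had a positive log2 difference. Pax6 (93.6 and 79.7 against 172 and 171) and Tubb3 (377 and 379 against 484 and 708) were higher without overlap. The 10 pluripotency markers summed to 25362 and 31397 against 35820.1 and 42564. What part cell composition has in the values of the enzymes was not tested.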

How the data were processed

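The 4 RNA-seq libraries of mouse embryonic stem cells were grouped by their labels. The ATAC-seq samples were not analysed here. Per the methods of the study, reads were mapped by the authors to mm9 using Tophat, counted with HTSeq-count and deposited as DESeq-normalized counts, a signal proportional to reads. In each library 100% of values are whole multiples of the value of 1 read to within 0.01 of a read. The strand setting and annotation of the counting are not given in the sources used here. No count model was run, since an automatic check of whole reads could not decide for a library with a step near 1.

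The test was limma 3.58.1 (R 4.3.3, variance trend, two-sided, Benjamini-Hochberg). It ran on log2 values after adding 1, for the 12993 genes of the table whose mean was at least 10. Fold changes on this scale understate those of weakly expressed genes. Members, classes, pairs and gene lists were chosen with earlier results of these data known. Named are the members that pass either limit, the extremes of each class, the highest and lowest levels, the paralogue pairs and the extremes of the other lists. Sirt1, Kat7, Kdm5b, Setd8 and further members given for their groups were added after their values were seen. Gene positions with exon length and GC share were taken from GENCODE (mm9) for all 59 members, older symbols included, and 75-base tiles every 25 bases were mapped with minimap2 2.31-r1302. The fit was also run on simulated counts with the same dispersion for every gene and no replicate effect. That run therefore does not measure how the fit performs on these libraries. Alternatives were pseudocounts of 0.1 and 5, other filters, scalings and variance models, the replicate block, each library left out, and a GC and length correction.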

Additional observations from a re-analysis of the deposited data

How the results depend on the processing

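The number of enzyme genes with a limma adjusted p under 0.05, 1 as reported, was 0 without the variance trend (5 at an unadjusted p under 0.05) and 0 in every leave-one-out fit (3 to 12), in which the lone library of a condition was assumed to vary like the others. After a GC and length correction (lowess span 0.3), chosen after seeing the data, it was 4, namely Kat2b, Kat6b, Kdm3a and Sirt1. The 4 selected by p and 2-fold limits ranged from 3 to 8 with a library left out, with 8 without serum/-LIF replicate 1. With the GC and length correction they were Hdac8 (lower), Kat2b, Kat6b and Sirt3. Over all genes the count of 64 was 32 with a pseudocount of 0.1, 34 with no filter beyond a mean above 0, 99 with a mean of at least 50, 0 without the trend, 256 with the GC and length correction and 0 in each fit with a library left out. The count of other enzymes and partner subunits, 0 as reported, was 2 with that correction. For these counts the cause was not tested.

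With the replicate number as a block (replicate block) the counts were 4 enzyme genes (Hdac6, Kat2b, Kat6b and Kdm3a), 391 genes in all and 4 other enzymes and partners, and with the GC and length correction as well 8, 796 and 8. Deviations of same-numbered libraries correlated by 0.0851 over all genes, and the replicate 1 minus 2 differences of the 2 conditions by 0.374 over the 58 enzyme genes, values across genes that are not independent. Rn45s took 46.6% and 38.4% of reads on genes in replicate 1 of serum/-LIF and of Royalactin. In replicate 2 it took 21.6% and 9.08%. Reads on other genes numbered 7878527 and 10538334 in replicate 1, and 11559820 and 15999458 in replicate 2. With 2 pairs and no label that ties the numbers to a shared culture or day, whether they pair the libraries cannot be told.

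Of 19 members followed over 15 alternatives, directions changed in leave-one-out fits only, for Kat2a (-0.43 to 0.12), Kdm1a (-0.039 to 0.49), Prmt2 (-0.42 to 0.16) and Setd5 (-0.23 to 0.40).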
